A study of Mus musculus with 4 samples.

Results

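The 10 genes described here serve the presentation of antigen by major histocompatibility complex (MHC) molecules, and all 10 symbols matched a gene among the 50600 that the count files list. They are the class I heavy chains H2-K1 and H2-D1 with their light chain B2m, the peptide loading genes Tap1, Tap2 and Tapbp, the class I regulator Nlrc5, and Cd74, H2-Aa and H2-Ab1 of the class II pathway. They were taken as a list of symbols. The cells were primary mouse T-helper 17 (Th17) cells of strain C57BL/6NJ, a class of helper T cell named for the interleukin it secretes, and their RNA was sequenced in 4 libraries that form 1 group with no second condition. The labels number them as biological replicates 1 to 4 and name a protocol for differentiating CD4 T cells, while sex is labelled as not collected and age as unknown. The assay is labelled total RNA-seq, but the library protocol is named for polyA RNA.

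Libraries held 24696730 to 37025016 fragments assigned to genes. The labels give a single donor identifier for all of them, but Xist, the RNA of the inactive X chromosome, was at 186 and 161 TPM in replicates 1 and 2 and at 0.687 and 0.721 TPM in replicates 3 and 4, and the Y-linked Ddx3y at 0.442 and 0.446 against 88.6 and 83.2 TPM. TPM divides fragments by exon length and rescales each library to 1000000, so that genes of different length can be compared. These libraries are not combined by that split anywhere here, and each member's value is given per library. Replicates 1 and 2 thus showed the female pattern and replicates 3 and 4 the male pattern, which a single animal does not give. Since the labels do not say how many animals the cultures came from, all p-values measure the spread between these libraries only. The cell type label was checked against marker genes. The Th17 cytokine gene Il17a was at 20.02 ± 1.02 TPM (SD, n = 4, as for every value given with ±), and 5 of 6 Th17 markers and all 8 T-cell markers reached 10 TPM in every library, against 33.9% of all protein-coding genes.

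MHC class I molecules display peptides from inside the cell to CD8 T cells. Each is a heavy chain joined to beta-2-microglobulin, and the peptides are cut by the proteasome, pumped into the endoplasmic reticulum by the Tap1-Tap2 transporter and loaded with the help of tapasin, the product of Tapbp. MHC class II molecules display peptides from outside the cell to CD4 T cells, and are made mainly by B cells, dendritic cells and macrophages. In class II, the alpha and beta chains assemble on the invariant chain, the product of Cd74. Both classes are switched on through a shared promoter element, the SXY module, by 2 related coactivators, Nlrc5 for class I and Ciita for class II. Mouse T cells are known to express class I on their surface and to lack class II, unlike activated human T cells.

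Promoters of class I pathway genes and of the class II gene H2-Aa were looked at for short motifs. RefSeq windows (GRCm38.p6, the mm10 build) were used for 6 of the 10 genes, of which H2-Aa alone is of class II. The window of Cd74 is not reported here. The 250 bases before the annotated start were searched on both strands for 4 short motifs. These were CCAAT (or ATTGG), the core of the Y box that the factor NF-Y binds, TGACG (or CGTCA), the core of the X2 box, AANNGAAA (or TTTCNNTT), a core bound by interferon regulatory factors, and GGGGA (or TCCCC), a half-site for NF-kappa-B. Of all 32851 promoter windows in the table, 33.8% held the first, 17.8% the second, 21.3% the third, 55.9% the fourth and 0.569% all 4. The windows of H2-K1, H2-D1 and H2-Aa held all 4 motifs, those of B2m and Tap1 held 3, and that of Tapbp held CCAAT only. Other annotated transcripts reach into some windows. All 250 bases of the H2-D1 window lie in an exon of another H2-D1 transcript and all 250 of the Tap1 window in an exon of Psmb9, and 146 of the Tapbp window lie in an exon of another Tapbp transcript. The 250 bases of H2-K1 (chr17:34000348-34000597, minus strand), B2m (chr2:122147437-122147686, plus strand) and H2-Aa (chr17:34287824-34288073, minus strand) are shown because they belong to a class I heavy chain, its light chain and a class II chain at very different levels. Capitals mark every match to the 4 motifs.
H2-K1: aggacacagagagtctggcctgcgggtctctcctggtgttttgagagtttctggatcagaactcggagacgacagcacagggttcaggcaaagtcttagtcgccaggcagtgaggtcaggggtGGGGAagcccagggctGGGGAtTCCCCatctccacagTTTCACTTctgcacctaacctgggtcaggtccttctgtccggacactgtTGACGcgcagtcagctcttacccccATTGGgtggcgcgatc
B2m: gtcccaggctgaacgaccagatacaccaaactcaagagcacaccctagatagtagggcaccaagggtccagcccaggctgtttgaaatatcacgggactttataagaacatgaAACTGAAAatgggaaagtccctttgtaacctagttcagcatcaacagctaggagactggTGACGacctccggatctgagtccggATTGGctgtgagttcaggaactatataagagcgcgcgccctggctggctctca
H2-Aa: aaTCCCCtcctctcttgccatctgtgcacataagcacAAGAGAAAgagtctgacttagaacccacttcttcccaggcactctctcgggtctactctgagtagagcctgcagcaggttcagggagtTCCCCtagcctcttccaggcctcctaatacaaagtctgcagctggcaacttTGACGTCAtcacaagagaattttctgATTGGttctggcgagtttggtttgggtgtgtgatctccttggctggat

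In H2-K1 a pair of kappa-B half-sites face each other from 111 to 101 bases before the start, followed by the interferon factor core at 90 to 83 bases, TGACG at 41 to 37 and ATTGG at 16 to 12. One more kappa-B half-site lies at 127 to 123 bases. H2-K1 has another annotated start as well. From that start the interferon factor core lies at 104 to 97 bases, TGACG at 55 to 51 and ATTGG at 30 to 26. A further CCAAT lies at 6 to 2 bases before it. In H2-K1, H2-D1 and B2m 20 bases lay between TGACG and the ATTGG after it, and in H2-Aa 21. Tap1 held CCAAT at 222 to 218 bases and TGACG at 86 to 82, in the other order, and Tapbp held no TGACG. Only 27 of the 32851 windows (0.0822%), from 24 genes, held TGACG followed by ATTGG with 20 or 21 bases between, a spacing chosen after these windows were seen. Besides these 4 genes, the 24 include the nonclassical class I gene H2-M3. The stretches from TGACG to ATTGG, with both motifs in capitals, are aligned here to show how the bases between differ. They were selected by this spacing, so the alignment is no test of it. H2-K1 is at chr17:34000359-34000388 (minus), H2-D1 at chr17:35262993-35263022 (plus), B2m at chr2:122147609-122147638 (plus), H2-M3 at chr17:37270188-37270217 (plus) and H2-Aa at chr17:34287867-34287897 (minus).
H2-K1: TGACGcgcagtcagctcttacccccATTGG
H2-D1: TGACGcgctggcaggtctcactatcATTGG
B2m: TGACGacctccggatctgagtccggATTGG
H2-M3: TGACGcttctccaattcccattctaATTGG
H2-Aa: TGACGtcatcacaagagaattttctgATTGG

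B2m, H2-K1 and H2-D1 were among the most abundant transcripts, the class I loading genes and Nlrc5 lay in the middle of the range, and the class II chains were barely detected. Of the 10 genes, 8 were at 1 TPM or more in all libraries, 7 at 10 TPM or more and 3 at 100 TPM or more, against 44.8%, 33.9% and 8.72% of the 21764 protein-coding genes listed. B2m (ENSMUSG00000060802.8, chromosome 2, 122147686 to 122153083 in mm10) was at 2316, 2240.45, 2389.65 and 2191 TPM in replicates 1 to 4. H2-K1 (ENSMUSG00000061232.15, chromosome 17, 33996017 to 34000333) was at 1068, 1029, 1034 and 1026 TPM. H2-D1 (ENSMUSG00000073411.11, chromosome 17, 35262730 to 35267499) was at 727, 727, 696 and 724 TPM. The 4 libraries lay close together for each of these genes, and their order was the same in every library. By mean level, B2m (2284 ± 87.1 TPM) ranked 34, H2-K1 (1039 ± 19.4) ranked 117 and H2-D1 (719 ± 14.9) ranked 185 among the 9761 protein-coding genes at 1 TPM or more in every library. Together these genes took 0.193% ± 0.00211 of all fragments.

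**Figure D1:**
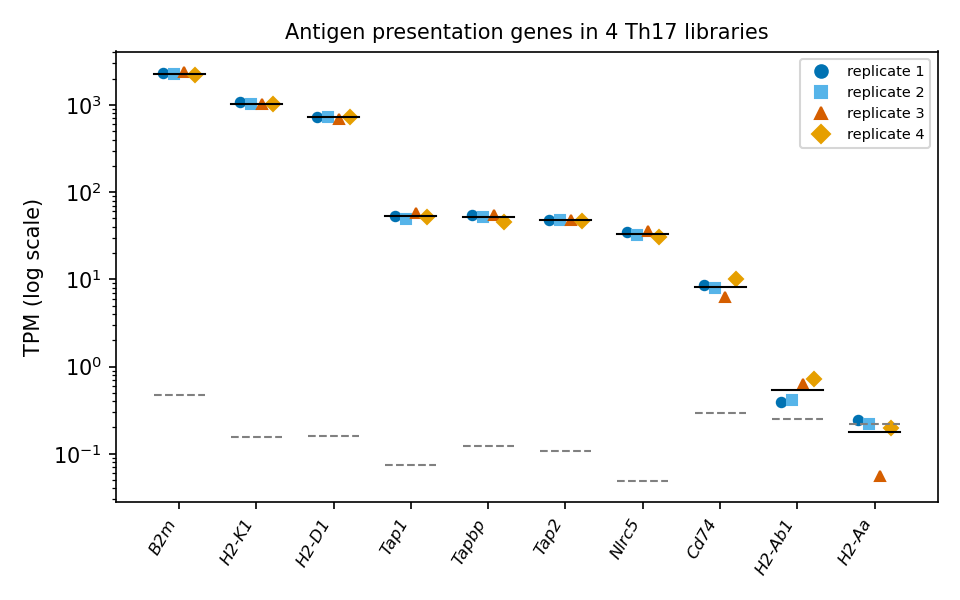
TPM of the 10 antigen presentation genes on a log axis, with a point per replicate, a black line at the mean and a dashed line at the level that 3 fragments give in the shallowest library. Levels run from 2284 TPM for B2m to 0.179 TPM for H2-Aa, whose mean lies under its dashed line.

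Within each library B2m exceeded H2-K1 by 2.20 ± 0.0773 times and H2-K1 exceeded H2-D1 by 1.45 ± 0.0356 times. The TPM of B2m was 1.30 ± 0.0564 times the summed TPM of the heavy chains H2-K1 and H2-D1. That last ratio depends on the length used. The files give the length of all annotated exons of a gene together (2608 bases for H2-K1, 860 for B2m), and with the longest coding transcript instead (1619 and 860 bases) B2m was at 0.894 ± 0.0376 times their sum. On that length H2-K1 was 1.90 ± 0.0467 times H2-D1, still the higher in 4 of 4 libraries, and B2m was 1.36 ± 0.048 times H2-K1.

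H2-K1 and H2-D1 are close relatives, which bears on how their fragments are assigned. Their coding exons 2, 3 and 4, which encode the alpha 1, alpha 2 and alpha 3 domains, were 91.1%, 88.0% and 96.0% identical in the reference transcripts. The longest identical run within a coding exon covers 91 bases of exon 4 (chr17:33997343-33997433, minus strand, in H2-K1, and chr17:35265911-35266001, plus strand, in H2-D1). It is shown as the stretch over which these genes cannot be told apart by sequence.
H2-K1 and H2-D1: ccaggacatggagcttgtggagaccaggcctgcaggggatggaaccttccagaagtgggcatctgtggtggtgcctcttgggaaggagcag
The peptide-binding part differs more. The 60 bases of exon 3 with the most differences (chr17:33999330-33999389, minus, in H2-K1, and chr17:35263996-35264055, plus, in H2-D1) hold 15, marked by capitals.
H2-K1: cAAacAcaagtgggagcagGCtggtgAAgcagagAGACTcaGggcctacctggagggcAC
H2-D1: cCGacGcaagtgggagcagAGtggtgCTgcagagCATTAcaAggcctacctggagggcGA

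Of all 50-base words in the annotated transcripts of H2-K1, 9.63% also occur in transcripts of other genes, and for H2-D1 the share was 12.8%. For B2m it was 0%. The effect of this on their counts was not tested, and the levels of both heavy chains are uncertain by an amount the count files do not show. The share was 53.5% for H2-T22, 50.4% for H2-T10, 36.4% for H2-Q4, 35.0% for H2-Q6, 26.5% for H2-Q7 and 14.5% for H2-T23. The levels of these genes are uncertain likewise.

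**Figure D2:**
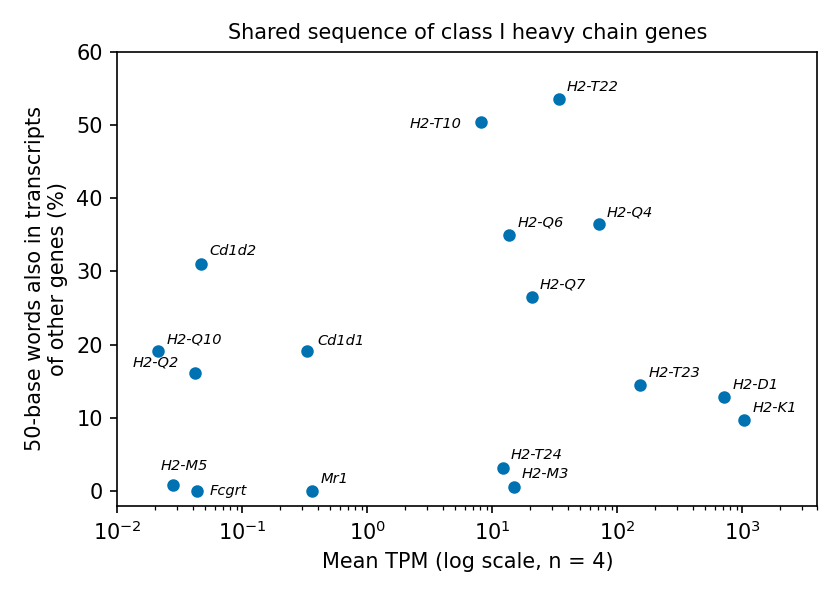
Percentage of a gene's 50-base words that also occur in annotated transcripts of other genes, against mean TPM over 4 libraries (log axis), for class I heavy chain genes with at least 1 fragment. H2-K1 and H2-D1 lie at 9.63% and 12.8%, while H2-T22 and H2-T10 lie above 50%.

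The other class I heavy chains were lower. Of 23 listed, 22 were matched. At least 1 TPM in every library was seen for 8 of them and at least 10 TPM for 7. Over all protein-coding genes the shares were 44.8% and 33.9%, which this list did not exceed. Another 7 of the heavy chains had no fragment. H2-T23, which encodes Qa-1, the ligand of NKG2A receptors, led at 153, 154, 150 and 155 TPM. H2-K1 was 6.79 ± 0.169 times as high, or 5.57 ± 0.139 times with the longest coding transcripts as lengths. After H2-T23 came H2-Q4 at 70.9 ± 1.97 TPM and H2-T22, a ligand of some gamma delta T cells, at 33.95 ± 0.617 TPM. H2-Q7, which encodes Qa-2, was at 20.6 ± 1.46 TPM. H2-M3, which presents formylated bacterial peptides and carries the spaced motifs shown above, was at 14.8 ± 1.58 TPM. Mr1 and Cd1d1, which present vitamin metabolites and lipids, were at 0.362 ± 0.123 and 0.330 ± 0.233 TPM. No fragment was counted for Hfe (a level of 0.115 TPM would give 3 in the shallowest library).

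**Figure D3:**
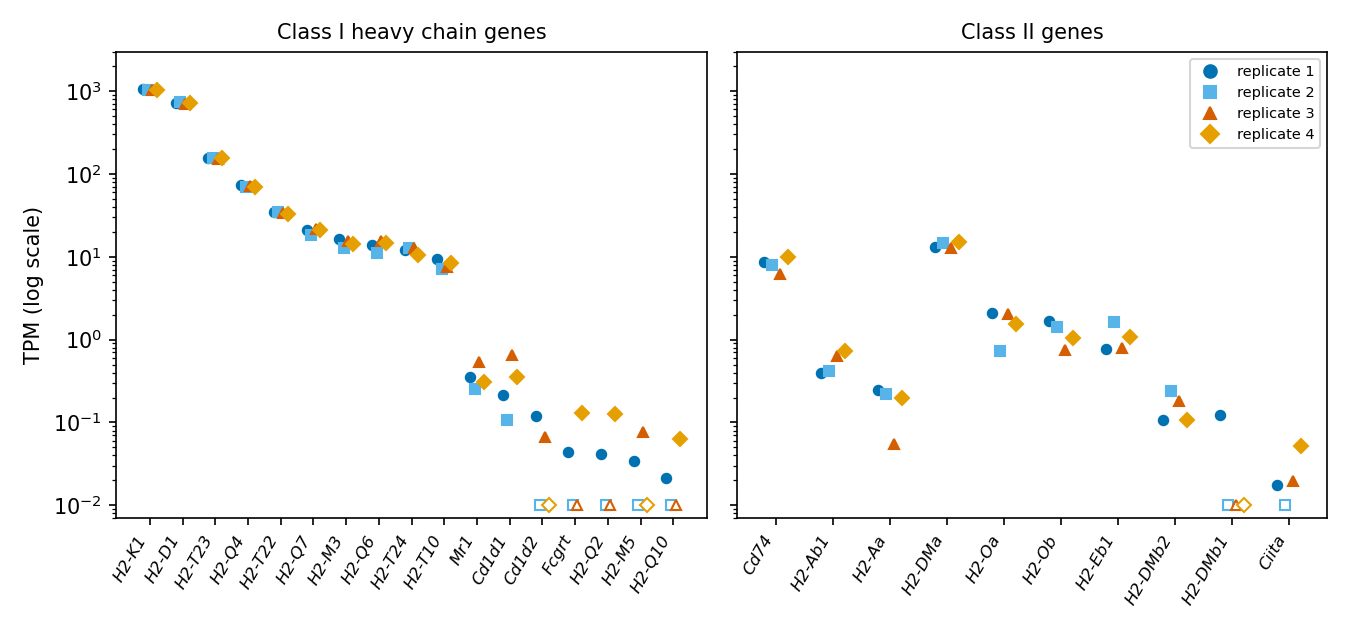
TPM by replicate (log axis) of class I heavy chain genes (left) and class II genes (right) with at least 1 fragment in some library. Open symbols at 0.01 mark libraries with no fragment. H2-K1 and H2-D1 average 1039 and 719 TPM, whereas the highest class II gene, H2-DMa, is at 13.8 TPM.

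The loading genes formed a narrow middle group. Tap1 (ENSMUSG00000037321.17, chromosome 17, 34187553 to 34197225) was at 53.1, 49.3, 57.2 and 52.1 TPM in replicates 1 to 4. Tapbp (ENSMUSG00000024308.14, chromosome 17, 33915899 to 33929288) was at 55.3, 51.3, 54.8 and 45.7 TPM. Tap2 (ENSMUSG00000024339.12, chromosome 17, 34203527 to 34216321) was at 48.5, 47.5, 48.2 and 46.2 TPM. These 3 ranges overlapped, and Tapbp was lowest in replicate 4. The means were 52.9 ± 3.30, 51.8 ± 4.44 and 47.6 ± 1.02 TPM, and H2-D1 exceeded Tap1 by 13.6 ± 1.08 times, or by 9.02 ± 0.714 times with the longest coding transcripts. The Tap1 to Tap2 ratio, 1.11 ± 0.0636 within libraries, was 1.88 ± 0.107 with the longest coding transcripts as lengths, so the near equality of the transporter subunits was not seen with those lengths. Of the 50-base words of Tapbp 23.2% occur in transcripts of other genes, and of those of Tap2 11.6%. Most of these are shared with the opposite-strand genes Gm19412 (20.3% of the Tapbp words) and Gm15821 (9.22% of the Tap2 words), which strand-specific counting keeps apart. All 12 further genes of peptide loading and folding reached 10 TPM in every library, against 33.9% of protein-coding genes. The chaperone genes Calr, Hspa5 and Canx were at 1752 ± 23.4, 1281 ± 22.2 and 669.7 ± 5.95 TPM and Pdia3, whose product pairs with tapasin, at 692 ± 11.6 TPM. Erap1, which trims peptides, was at 107 ± 6.65 TPM, and the tapasin relative Tapbpl was the lowest at 19.5 ± 1.48 TPM.

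Tap1 and Tap2 alternate on chromosome 17 with genes of the immunoproteasome, the proteasome form that interferon induces and that favours class I peptides. In order of position, Psmb9 was at 10.6 ± 0.749 TPM, Tap1 at 52.9 ± 3.30, Psmb8 at 52.6 ± 2.71 and Tap2 at 47.6 ± 1.02 TPM, and the next gene, the class II gene H2-Ob, at 1.23 ± 0.412 TPM. Psmb9 and Tap1 start from opposite strands within 212 shared bases, and strand-specific counting keeps them apart. Tap1 was 4.99 ± 0.364 times Psmb9 within libraries, or 3.42 ± 0.249 times with the longest coding transcripts, and above it in 4 of 4.

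Each inducible catalytic subunit lay far below the constitutive subunit it replaces. Psmb6 was 39.96 ± 3.26 times Psmb9, Psmb5 was 7.51 ± 0.581 times Psmb8 and Psmb7 was 5.50 ± 0.547 times Psmb10, with the constitutive gene higher in 4 of 4 libraries. Values with the longest coding transcripts were 34.6, 4.33 and 12.5 times, in the same direction. The proteasome activator genes Psme1 and Psme2 were at 279 ± 12.5 and 150.01 ± 14.5 TPM.

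**Figure D4:**
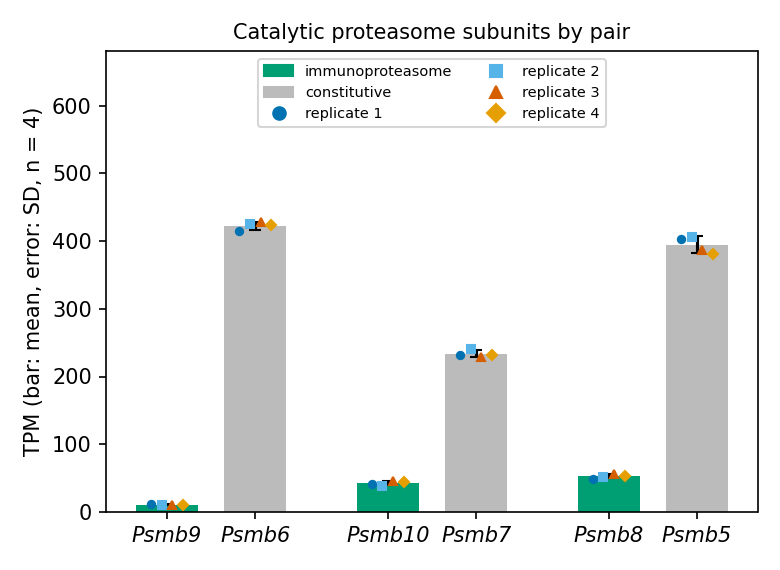
Mean TPM (bars, error bars SD, n = 4, with a point per replicate) of each inducible catalytic proteasome subunit beside the constitutive subunit it replaces. Psmb9, Psmb10 and Psmb8 lie between 10.6 and 52.6 TPM, all below Psmb6, Psmb7 and Psmb5 at 233 to 423 TPM.

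Of the coactivators, that of class I was clearly present and that of class II lay below the level of 3 fragments. Nlrc5 (ENSMUSG00000074151.13, chromosome 8, 94434356 to 94527272) was at 35.1, 32.0, 35.5 and 30.8 TPM, with 1990 to 3243 fragments per library. Ciita had 1, 0, 1 and 3 fragments, a mean of 0.0224 TPM that is under the 0.0779 TPM that 3 fragments give in the shallowest library. All 8 factors of the SXY module that both coactivators use reached 10 TPM in every library, against 33.9% of protein-coding genes. Atf1 led at 142 ± 4.05 TPM, before the NF-Y subunits Nfyb, Nfyc and Nfya at 51.1 ± 2.18, 49.7 ± 1.48 and 49.6 ± 1.13 TPM. The RFX subunit gene Rfxank was the lowest at 11.6 ± 0.906 TPM.

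Class II transcripts were low, but unevenly so. Cd74 (ENSMUSG00000024610.14, chromosome 18) was at 8.60, 7.94, 6.23 and 10.01 TPM in replicates 1 to 4, from 82 to 154 fragments. H2-Ab1 (ENSMUSG00000073421.5, chromosome 17, 34263209 to 34269418), the beta chain of I-A, was at 0.393, 0.417, 0.632 and 0.728 TPM. H2-Aa (ENSMUSG00000036594.14, chromosome 17, 34282744 to 34287827), its alpha chain, was at 0.245, 0.218, 0.0552 and 0.196 TPM. Cd74 was thus above both I-A chains in every library, by 16.1 ± 5.37 times over H2-Ab1. The chain values rest on 35 fragments of H2-Ab1 in all (exact Poisson 95% interval 24.4 to 48.7) and 13 of H2-Aa (6.92 to 22.2). Such intervals and floors cover counting error only. The mean of H2-Aa, 0.179 TPM, lay under the 0.218 TPM of 3 fragments in the shallowest library. H2-K1 exceeded H2-Ab1 by between 1409 and 2719 times within libraries.

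Of the 9 other class II genes listed, H2-DMa alone reached 1 TPM in every library, against 44.8% of protein-coding genes. H2-DMa, a chain of the peptide editor H2-DM, was at 13.1, 14.5, 12.7 and 15.1 TPM (mean 13.8 ± 1.16), above Cd74 in every library. With the longest coding transcripts as lengths the means were 8.18 ± 0.682 TPM for H2-DMa and 5.91 ± 1.13 TPM for Cd74. Of the 50-base words of H2-DMa 8.43% also occur in transcripts of Brd2, and the effect on its count was not tested. The partner chains of H2-DMa, H2-DMb1 and H2-DMb2, had 2 and 10 fragments in all. H2-Oa, H2-Ob and H2-Eb1 were at 1.60 ± 0.636, 1.23 ± 0.412 and 1.06 ± 0.393 TPM, and H2-Ea-ps and H2-Eb2 had no fragment. Against the same 44.8%, 8 of 9 genes of class II peptide handling and turnover reached 1 TPM in every library. They were led by the lysosomal protease Ctsb at 193 ± 8.27 TPM, the thiol reductase Ifi30 at 143 ± 2.95, Ctsd at 80.2 ± 5.34 and Ctss at 39.8 ± 2.81 TPM, while the ubiquitin ligase gene March1 had no fragment.

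Markers of cells that make class II were sparse. The summed TPM of 8 B-cell markers was 1.57, 0.779, 0.988 and 1.58 in replicates 1 to 4, with Cr2, Ms4a1 and Pax5 at no fragment and Ighd highest at 0.605 ± 0.267 TPM. That of 8 dendritic cell markers was 0.334, 0.292, 0.327 and 0.426, with Cd209a, Clec9a and Siglech at no fragment and Xcr1 highest at 0.188 ± 0.124 TPM. That of 8 macrophage and monocyte markers was 5.06, 4.03, 6.32 and 5.90, nearly all of it Cd68 at 5.24 ± 1.02 TPM, with C1qa, C1qb and Lyz2 at no fragment. Cd68 alone of them reached 1 TPM in every library, at 5.04, 3.91, 6.25 and 5.76 TPM, which was below Cd74 in 3 of 4 libraries and about level with it in replicate 3. Their part in the Cd74 level was not tested, and in such bulk RNA a few cells with much Cd74 cannot be told apart from many cells with little. Cd8b1, a CD8 marker, was at 7.32 ± 1.16 TPM and Cd8a at 0.102 ± 0.0523 TPM.

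Most upstream genes of class I and class II induction were present. Of 20 listed, 18 reached 1 TPM and 16 reached 10 TPM in every library, against 44.8% and 33.9% of protein-coding genes. The highest of the 20 were Nfkb1 at 276 ± 9.07, the kinase gene Jak2 at 249 ± 8.37, the feedback inhibitor Socs1 at 193 ± 11.4 and Irf8 at 177 ± 7.74 TPM. Irf1, which carries the interferon signal to these promoters, was at 22.6 ± 1.62 TPM. The other two were Prdm1, which encodes a transcriptional repressor, at 0.471 TPM and the inducing cytokine gene Ifng. Ifng had 2 fragments in all, a mean of 0.0354 TPM, where 3 in the shallowest library give 0.316 TPM. Among the 17 genes listed for the interferon response, all 4 libraries were at 1 TPM or more for 7 and at 10 TPM or more for 4. Over all protein-coding genes the shares were 44.8% and 33.9%, which this list did not exceed. Bst2 and the GTPase gene Ifi47 were at 227 ± 3.29 and 131 ± 13.2 TPM, Igtp and Gbp2 at 21.4 ± 2.10 and 13.2 ± 1.08 TPM, and the antiviral gene Rsad2 at 0.0655 ± 0.00414 TPM.

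In descending order of mean TPM the genes were B2m, H2-K1, H2-D1, Tap1, Tapbp, Tap2, Nlrc5, Cd74, H2-Ab1 and H2-Aa. For 7 of the 9 neighbouring pairs the upper gene was higher in 4 of 4 libraries and the ranges over libraries did not overlap. For H2-Ab1 over H2-Aa, fragments were 7 against 5 in replicate 1 and 5 against 3 in replicate 2, too few to order these genes there. The exact two-sided sign-flip test gave each of these 7 pairs the lowest p the design can give, which is 0.161 after Benjamini-Hochberg adjustment over the 9, so no pair can pass 0.05. Tap1 and Tapbp, with 2 of 4 libraries each way, and Tapbp and Tap2, with 3 of 4, had overlapping ranges (exact sign-flip p = 0.625 and 0.25). With 4 libraries this test cannot show whether they differ. On the longest coding transcripts Tap1 exceeded Tapbp in 4 of 4 libraries, by 1.67 ± 0.141 times, and Tapbp exceeded Tap2 in 4 of 4, by 1.13 ± 0.0733 times. Without replicate 4, where Tapbp was lowest, the ranges of Tapbp and Tap2 no longer overlapped.

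Over the 4 libraries the coefficient of variation was 1.87% for H2-K1, 2.08% for H2-D1, 2.15% for Tap2 and 3.81% for B2m, between 6.23% and 8.57% for Tap1, Nlrc5 and Tapbp, and 19.1% for Cd74. It was 30.2% for H2-Ab1 and 47.4% for H2-Aa, which rest on few fragments. Each gene's spread was compared with that of genes of like abundance over all 11847 genes that passed edgeR's filter on low counts, with edgeR's quasi-likelihood fit and Benjamini-Hochberg adjustment, one-sided. That filter kept 8 of the 10 genes and dropped H2-Aa and H2-Ab1. Of all genes tested 36 varied more than their peers (adjusted p under 0.05), which is 0.304%, and 674 (5.69%) had an unadjusted p under 0.05. Of the 36, 6 lie on chromosome X or Y, and 40 genes were called when those chromosomes were left out. None of the 8 was called, and 2 had an unadjusted p under 0.05. These were Tapbp, at 3.27 times the variance of its peers (edgeR adjusted p = 0.821), and Nlrc5, at 3.12 times (edgeR adjusted p = 0.837). Such ratios compare variances (the residual quasi-dispersion of the fit over its trend), not SDs as the coefficient of variation does. Without replicate 4 the Tapbp variance was 0.433 times that of its peers, and without replicate 2 it was 5.90 times. Tap2 at 0.149 times and H2-K1 at 0.215 times varied less than the trend. DESeq2's dispersion outliers likewise held none of the 8, of 65 genes called in all.

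Of the 93 genes of the wider lists that were tested, Il17f alone was called (702.8, 724, 589 and 759 TPM, adjusted p = 0.00785, edgeR quasi-likelihood test). This Th17 cytokine gene was lowest in replicate 3, and without that library its edgeR adjusted p was 0.986. It was 0.095 without replicate 4 and 0.101 with a prior without robust estimation. The interferon response gene Ifi47 came next, at 141, 143, 121 and 117 TPM with an adjusted p of 0.0518 in the same test. Its values in replicates 1 and 2 were above those in replicates 3 and 4.

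**Figure D5:**
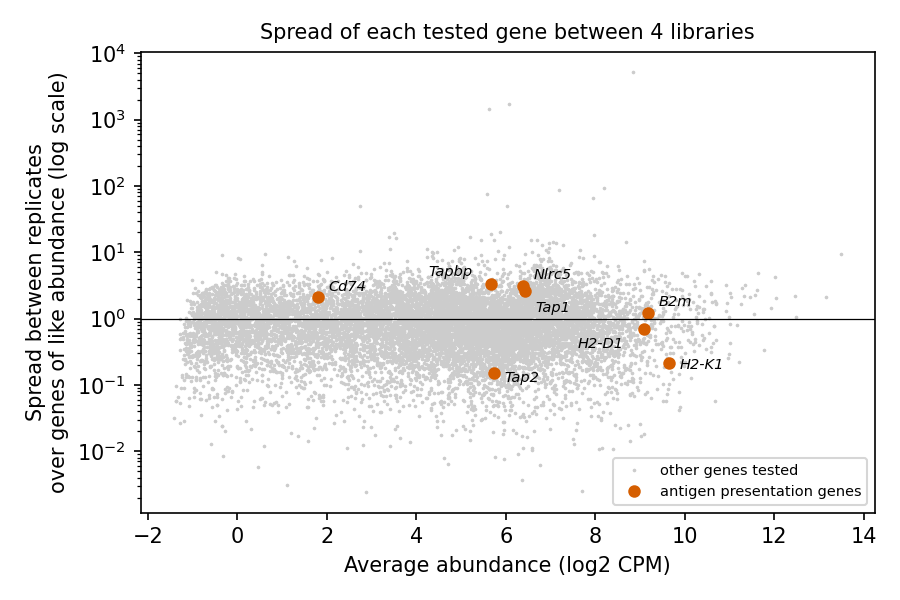
Spread of each gene between the 4 libraries relative to genes of like abundance, against average abundance in log2 CPM. The spread is a ratio of variances, on a log axis. The 8 tested antigen presentation genes (orange) lie between 0.149 and 3.27 times the trend, inside the cloud of the 11847 genes tested.

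Genes of the same chromosome with the most similar level were found by the mean absolute difference in log2(TPM + 1) over the 4 libraries, among 936 genes of chromosome 17 with a fragment. For H2-K1 they were the ribosomal protein gene Rps18 (1088 ± 53.7 TPM, difference 0.07), the noncoding gene Gm42418 (1003 ± 76.97 TPM, 0.07) and Rps10 (874 ± 30.1 TPM, 0.25). For H2-Ab1 they included Gm16279 (0.579 ± 0.0935 TPM, 0.08) and Gnmt (0.624 ± 0.189 TPM, 0.09).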

How the data were processed

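RNA of 4 Th17 libraries was measured by RNA-seq. The authors made raw fragment counts for each gene with featureCounts 1.4.6-p4, per the file headers, on paired-end alignments and the GENCODE M13 exons, with both ends aligned and strand option 2 (reverse), on mm10 per the labels. The headers show no option for fragments with several alignments or genes, which the program's default leaves out. Symbols, transcripts and coordinates of coding stretches came from GENCODE M21 (mm10), and promoter windows from RefSeq.

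TPM was computed here from the deposited counts and exon lengths. The floor for low genes is 3 fragments. For variability, R 4.3.3 ran the quasi-likelihood fit of edgeR 4.0.16 (filterByExpr, TMM, intercept only, the older deviance estimate, robust prior with its largest degrees of freedom, 24.8), which was also tested on simulated data. Neighbouring members were compared by exact sign-flip tests, with levels under 3 fragments raised to the level of 3. Shared sequence was measured with 50-base words on either strand. Python 3.11.15 did the rest, with pandas 2.3.3, numpy 2.4.6, matplotlib 3.10.9 and scipy 1.17.1, and alternatives used limma 3.58.1 and DESeq2 1.42.0. The members and the 15 gene lists were chosen with earlier results of these data known, and the motif spacing and printed stretches were chosen after seeing the data. Named genes are all members, the 4 highest and the lowest of each list (fewer are printed for some lists), list genes called variable, the neighbours of Tap1 and Tap2, and the genes most like H2-K1 and H2-Ab1 in level. Other list genes were named after their values were seen. One listed symbol, H2-T9, found no match. A few genes that the rule names are not reported here.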

Additional observations from a re-analysis of the deposited data

Results flagged for a closer look

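Of 74 named genes with a fragment, 5 had a library set apart from the other 3, where chance flags about 1 in 20 groups. H2-D1 was at 696 TPM in replicate 3, against 724 to 727 TPM in the others, a gap that is small beside its level. H2-Q7, which shares much sequence with other genes, was at 18.5 TPM in replicate 2, against 21.2 to 21.6 TPM in the others. The remaining flags rest on 11 fragments or fewer in all, to which that chance rate does not apply. A gene with fragments in a single library, such as Ifng or Fcgr3, is always flagged. Rsad2 was at 0.0717 TPM in replicate 3, Ifng at 0.142 TPM in replicate 4 and the macrophage marker Fcgr3 at 0.0786 TPM in replicate 2, the last from 1 fragment.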

How the results depend on the processing

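Of 80 recomputed levels of the 10 genes, 19 moved by more than 1 SD and 0 by more than 1.5 times. Rescaling without mitochondrial, ribosomal RNA or ribosomal protein genes, or by TMM, gave between 1.00 and 1.20 times the level, the longest coding transcripts as lengths between 0.722 and 1.34 times, and leaving out a replicate by between 0.876 and 1.23 times, the widest for H2-Aa. The count of genes at 1 TPM in every library was 8 also at 0.5 TPM, at 2 TPM, at 10 fragments, with the longest coding transcripts as lengths and without each replicate. The 7 neighbouring pairs with ranges apart were between 6 and 8 under other units, lengths, pseudocounts and replicate sets. The 36 genes called variable were 17 with a prior without robust estimation, 94 with every gene with a fragment tested, 65 by DESeq2 dispersion outliers, and between 15 and 37 without 1 replicate, the lowest without replicate 4. The looser filter tested 20704 genes in place of 11847, and the cause of the other changes was not tested. No member was called in any of 72 recomputed tests (adjusted p between 0.602 and 1.00). With words of 30 or 100 bases, the shared sequence of H2-K1 was 24.01% and 0.957%, and that of H2-D1 28.3% and 3.59%. No comparison of conditions was possible because all libraries form 1 group, and comparisons between genes were paired within libraries. Few fragments limit the values of H2-Aa, H2-Ab1 and Ciita, which rest on 13, 35 and 5 over the 4 libraries.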
